A study of Caenorhabditis elegans with 32 samples.

Results

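The genes described here are the chemoreceptor genes of Caenorhabditis elegans that were counted in sorted neurons of day 1 adults. A protein-coding gene was taken when its name fell in one of the serpentine receptor name classes (sr followed by letters, str, or odr-10) and when it had a raw count of 10 or more in at least 4 of the 8 libraries of day 1 sorted neurons. The names matched 1356 of the 20447 protein-coding genes in the table, and 75 of them met the count rule. By name, 66 of the 75 belong to a chemoreceptor family, out of 1343 such genes, and these 66 are called the chemoreceptor genes below. The other 9 only share the first letters, among them src-1 (a Src tyrosine kinase), srf-3 (a nucleotide sugar transporter) and srp-1, srp-2, srp-6 and srp-7 (serpin protease inhibitors). They were set aside. Because counts of day 1 neurons chose the genes, every level of day 1 neurons is given as a description. Where a p-value involves these libraries, it does not test the genes and is read no further.

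All animals were hermaphrodites of strain KL123, which carries the ad609 allele of npr-1 on chromosome X and the integrated transgene iaIs25, made of Pgcy-37::GFP and unc-119(+), and they were kept at 21% or 7% O2. They hatched on OP50 bacteria and received mex-3 RNAi by feeding from the L3 stage, and the day 7 adults were returned to OP50 on day 4, so food at collection differs with age. Day 1 and day 7 adults were dissociated and GFP-positive cells were sorted ("neurons"), and an aliquot of the suspension before sorting gave the unsorted sample ("whole worms"), which makes 8 groups with 4 biological replicates each and 32 RNA-seq libraries. The gcy-37 promoter marks the O2-sensing neurons URX, AQR and PQR and, weakly, the touch neuron AVM and the chemosensory neuron ASI, and a sorted sample is a pool of cells from many worms. In such bulk samples fewer cells of a type and less RNA per cell cannot be told apart.

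Chemoreceptors of these families are G protein-coupled receptors with several membrane-spanning helices. They sit mostly in the cilia of head and tail sensory neurons, where odours, tastes and pheromones from the surroundings reach them, and a single sensory neuron can make many kinds at once. C. elegans holds one of the largest receptor repertoires known for an animal of its size, much of it in tandem arrays on chromosome V, and the ligands of most members are not known.

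Total counts per library ran from 5365596 to 30666288. Levels are TMM-scaled CPM, counts relative to the total of the library after correction for its composition, and levels of different genes were ranked per kilobase of exon. The O2-sensing neuron markers, 9 genes including gcy-32, gcy-36 and gcy-37, summed to 3001 to 10460 CPM in day 1 neurons, to 373.8 to 894.8 CPM in day 7 neurons and to 8.38 to 30.1 CPM in whole worms. The 5 ASI markers (daf-7, str-3, gpa-4, daf-28 and ins-3) summed to 396 to 5218 CPM in day 1 neurons and the 7 touch neuron markers to 3990 to 20290 CPM. Receptors that mark other amphid neurons, such as str-1 (AWB), sra-9 and srbc-64 (ASK), srh-142 (ADF) and srh-220 (ADL), had no count in any day 1 neuron library. Other markers did have counts there. The ASJ pair (trx-1 and ins-6) had medians of 219 and 274 CPM at 21% and 7% O2, nearly all of it ins-6. The ASH pair (sra-6 and osm-10) had 279 and 514 CPM, nearly all of it osm-10. The 4 BAG markers had 533 and 208 CPM, mostly gcy-33, which the paper lists among genes known from URX, AQR and PQR. Medians of these lists in day 1 whole worms were 0.316 to 3.23 CPM. In day 1 neurons trx-1 and sra-6 had no count at 7% O2, and ets-5 of the BAG list had none at 21% O2. Which cells these counts came from was not tested.

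Most of the repertoire was not counted in day 1 neurons. Of the 1343 chemoreceptor genes, 1116 reached a count of 10 in none of the 8 libraries, 102 did in 1, 41 in 2 and 18 in 3, and 12 did in all 8. The 66 genes covered most classes of receptor. The Srg superfamily gave 21 of its 320 genes (6.56%), the Str superfamily 20 of 585 (3.42%), the Sra superfamily 13 of 127 (10.2%) and the families outside these 12 of 311 (3.86%). By family, srg had 11 of 61 genes, str 8 of 195, and sra 6 of 35, whereas srbc (72 genes), srv (30) and srxa (17) had none. On WBcel235, 35 of the 66 genes (53.0%) lay on chromosome V, which holds 912 (67.9%) of the family, and chromosome IV held 11, II 8, I 6, X 4 and III 2. Another of the 66 was the next protein-coding gene along the chromosome for 12 genes: sra-17 with sra-25, sra-20 with sra-21, srg-38 with srg-39, srm-5 with srm-6, srr-4 with srr-6 and str-232 with srx-43.

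The 10 genes with exactly 4 libraries at a count of 10 had mean levels over day 1 neurons of 0.749 to 2.65 CPM, and the 18 genes just outside, with 3 libraries, had 0.520 to 6.01 CPM, values that are not scaled for gene length. Just inside, srh-112 had counts of 6, 30, 4 and 0 at 21% O2 and of 0, 11, 65 and 86 at 7% O2. Just outside, srt-53 had 0, 2, 72 and 21 at 21% O2 and 0, 1, 0 and 412 at 7% O2, so that a single library held most of its counts.

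**Figure D1:**
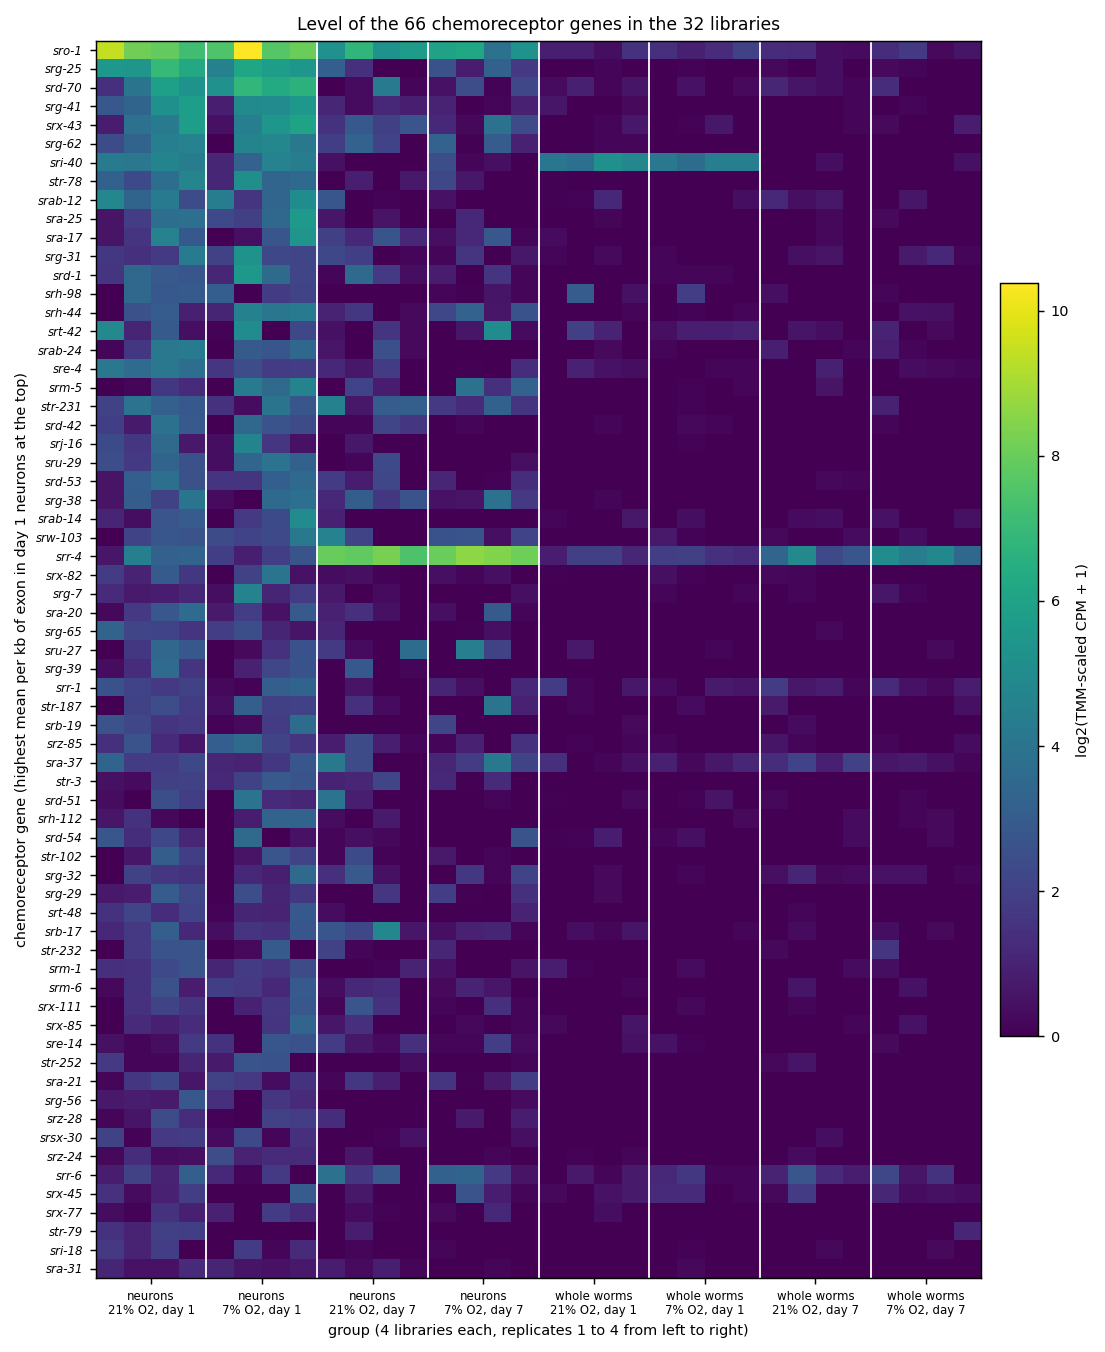
Level of the 66 chemoreceptor genes (1 per line, highest mean per kilobase of exon in day 1 neurons at the top) in the 32 libraries, as log2 of TMM-scaled CPM plus 1, with the 4 replicates of each of the 8 groups side by side. The genes were chosen for counts in the 8 day 1 neuron libraries on the left. srr-4 stands out in day 7 neurons and sri-40 in day 1 whole worms.

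sro-1, the single gene of the sro family, had the highest level. It is WBGene00005641, on the minus strand of chromosome II from 7460026 to 7465619. In day 1 neurons it had 696, 283, 236 and 146 CPM at 21% O2 and 185, 1338, 200 and 265 CPM at 7% O2, in the order of replicates 1 to 4. In whole worms of the same age it lay between 0.318 and 3.02 CPM, so neurons and whole worms did not overlap. Per kilobase of exon its mean was 269.3 CPM at 21% O2 and 393.2 at 7% O2, and the next gene had 49.4 (srg-25) and 53.5 (srd-70). Without replicate 2 at 7% O2, the library with 1338 CPM, the mean of sro-1 at 7% O2 was 171.4 CPM per kilobase. The median of the 66 genes was 3.02 CPM per kilobase at 21% O2 and 3.32 at 7% O2. sro-1 alone took between 21.2% and 74.1% of the counts of the 66 genes in each day 1 neuron library, and between 2.76% and 25.5% in day 7 neurons.

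srg-25 (WBGene00005182, chromosome V, 5342094 to 5345519) was next at 21% O2. It had 45.6, 42.1, 123 and 77.1 CPM in day 1 neurons at 21% O2 and 22.6, 68.4, 53.5 and 42.5 CPM at 7% O2, against 0 to 0.106 CPM in day 1 whole worms. All 8 neuron libraries lay above all 8 whole-worm libraries, which together held 2 counts of the gene. srd-70 (WBGene00005147, chromosome V, 20454111 to 20456487) had 1.72, 14.96, 57.6 and 38.95 CPM at 21% O2 and 37.5, 117, 79.9 and 100 CPM at 7% O2. The 2 O2 groups of srd-70 overlapped, since 2 libraries at 21% O2 were above the lowest at 7% O2.

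srg-41, another gene counted in every day 1 neuron library, had 5.99, 9.29, 35.8 and 54.4 CPM in day 1 neurons at 21% O2 and 0.850, 29.6, 31.7 and 45.1 CPM at 7% O2. str-78 had means of 12.6 and 14.1 CPM, srg-62 of 14.4 and 17.01, srab-12 of 14.6 and 16.02 and sra-25 of 7.12 and 15.9, at 21% and 7% O2. The 12 genes with a count of 10 or more in all 8 day 1 neuron libraries were sra-37, srab-12, srd-1, srd-70, sre-4, srg-25, srg-31, srg-41, sri-40, srm-1, sro-1 and str-78. At the low end, 10 genes at 21% O2 and 4 at 7% O2 had means under 1 CPM per kilobase, and 11 and 15 genes were at 10 or more.

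Of 24 receptors with a known home neuron that were looked up, 3 were among the 66: srx-43, srd-1 and str-3. All are known from ASI, srx-43 from other neurons as well, and other ASI receptors that were looked up did not meet the rule. srx-43, a pheromone receptor (WBGene00005934, chromosome V, 16017971 to 16020066), had 0.726, 13.9, 17.7 and 54.9 CPM at 21% O2 and 0.386, 20.6, 43.5 and 62.3 CPM at 7% O2. srd-1 had 2.00, 10.1, 6.44 and 5.86 CPM at 21% O2 and 1.16, 45.1, 10.97 and 3.54 CPM at 7% O2. The lowest library was replicate 1 in both groups and for both genes. str-3 had 0.363, 0.246, 2.86 and 3.15 CPM at 21% O2 and 1.31, 3.19, 6.39 and 5.51 CPM at 7% O2, lowest in replicate 2 at 21% O2 and in replicate 1 at 7% O2. Among receptors that did not meet the rule, sra-6 of ASH and ASI had 34 and 7 counts in replicates 3 and 4 at 21% O2. There srx-44, of ASI and other neurons, had 61 and 90. Both had none in the other 6 libraries. srg-36, an ASI pheromone receptor, had 166 and 140 counts in replicates 3 and 4 at 21% O2 and 0 to 4 counts in the other 6 libraries. srg-37, also of ASI, had 9 and 1 counts in these 2 libraries and 0 in the other 6. odr-10, the diacetyl receptor of AWA, had 27 counts in 1 library, 1 in another and 0 in the other 6.

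Marker sums of ASI and of touch neurons differed between replicates and are given beside the list. Without sro-1 and srr-4, the other 64 genes summed to 242.5, 266, 609 and 533 CPM in day 1 neurons at 21% O2, where the 4 ASI markers other than str-3 summed to 767, 1583, 3768 and 4034 CPM. At 7% O2 the 64 genes summed to 146, 646, 516.5 and 727 CPM and the ASI markers to 394.5, 3964, 3697 and 5213 CPM. In both groups replicate 1 was lowest in both sums. Day 7 neurons differed by O2 level, since at 21% O2 replicate 4 was lowest in both (40.7 CPM of the 64 genes and 333.5 CPM of ASI markers), whereas at 7% O2 replicate 3 had the lowest ASI sum (160 CPM) and the highest sum of the 64 genes (152 CPM). In day 1 neurons sro-1 was highest in the library where the 7 touch neuron markers were highest, 14550 CPM in replicate 1 at 21% O2 and 20290 CPM in replicate 2 at 7% O2. On day 7 it was highest in replicate 2 at both O2 levels, where the touch neuron sum was 870 CPM at 21% O2, below the 895 CPM of replicate 3, and 249 CPM at 7% O2, the lowest of the 4 libraries. The part of these cell types in the levels was not tested.

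**Figure D2:**
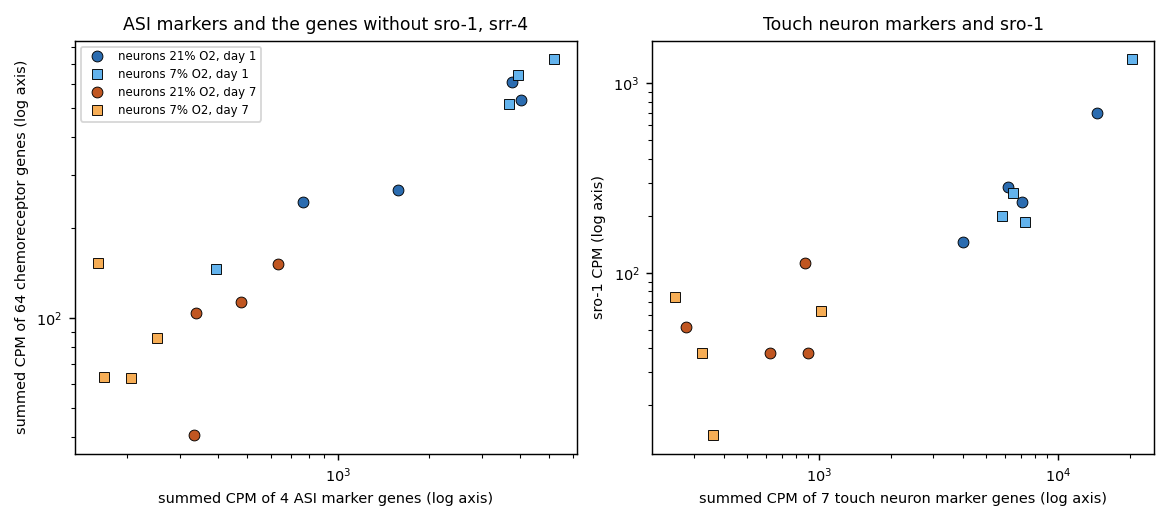
Left, summed CPM of 64 chemoreceptor genes (all but sro-1 and srr-4) against summed CPM of 4 ASI markers in the 16 neuron libraries, both axes log. Right, sro-1 against summed CPM of the 7 touch neuron markers, both axes log. Blue symbols are day 1 and orange day 7, circles 21% and squares 7% O2. The 3 day 1 libraries with the lowest ASI sums, 394.5, 767 and 1583 CPM, also had the lowest sums of the 64 genes at that age, 146, 242.5 and 266 CPM, and the day 7 library with the lowest ASI sum, 160 CPM, had the highest sum at that age, 152 CPM.

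To ask how the genes stood in neurons relative to the animal, neurons were compared with whole worms of the same age and O2 level with edgeR's quasi-likelihood test. A gene was called at a Benjamini-Hochberg adjusted p under 0.1 over all genes tested and a fold change of at least 1.5. On day 1 the rule used one of the groups, so what follows for that age only describes. At 21% O2, 28 of the 66 genes passed the filter on low counts and 24 were called higher in neurons and none lower, where 30.0% of all genes tested were called higher. At 7% O2, 22 passed and 16 were called higher and none lower, where 26.8% of all genes were. A gene near 0 in whole worms passed this filter only through neurons and so had to differ, which is why nothing is read from these counts. All 4 neuron libraries lay above all 4 whole-worm libraries for 43 of the 66 genes at 21% O2 and for 31 at 7% O2, where 13.6% and 11.5% of all genes with a count in these libraries did so. These counts rest on the libraries that chose the genes and are read no further. In whole worms 25 and 27 of the 66 had no count in any of the 4 libraries. The 9 genes called at both O2 levels were srab-12, srd-1, srd-70, sre-4, srg-25, srg-31, srm-1, sro-1 and str-78. Against whole worms with no count of str-78 at 7% O2, its level in neurons was at least 207-fold higher, taking 3 counts over the group as the floor.

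sri-40 was different. It is WBGene00005552, on the plus strand of chromosome II from 3177963 to 3180478. In day 1 neurons it had 19.1, 16.4, 24.8 and 20.4 CPM at 21% O2 and 1.16, 8.58, 23.2 and 19.9 CPM at 7% O2. In day 1 whole worms it had 16.1, 13.02, 35.8 and 26.7 CPM at 21% O2 and 16.99, 11.8, 20.7 and 20.5 CPM at 7% O2. The groups overlapped at both O2 levels, with log2 fold changes of neurons over whole worms of -0.04 and -0.30. Its mean in day 1 whole worms, 18.8 and 14.3 CPM per kilobase of exon, was the highest of the 66 genes.

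The day 7 comparison used no library of the rule. On day 7 few of the genes had enough counts to test: 5 of 66 passed the filter at 21% O2 and 5 at 7% O2. At 21% O2, 3 were called higher in neurons (sro-1, srr-4 and srx-43) and none lower, against 23.5% of all genes tested called higher. At 7% O2, 4 were called higher (sro-1, srr-4, sra-37 and str-231) and none lower, against 24.7% of all genes tested. Of the 6 genes tested at either O2 level only srr-4 had a count of 10 or more in all 4 whole-worm libraries, so the others passed the filter mainly through neurons, and as for day 1 nothing is read from these counts. The gene tested but not called at either O2 level was srr-6, with log2 differences of 1.37 and 1.73. Over the 66 genes, all 4 neuron libraries lay above all 4 whole-worm libraries for 12 at 21% O2 (18.2%) and 11 at 7% O2 (16.7%), where 9.62% and 10.5% of all genes with a count in these libraries did so. Without the filter 21 and 23 genes were called, all higher in neurons, beside 2396 and 2797 of all genes called higher. DESeq2 called 17 and 15, all higher, beside 2739 and 2868 of all genes. The 66 genes were chosen for counts in neurons, so nothing is read from these numbers either.

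sro-1 and srr-4 were the 2 genes called at both O2 levels. In day 7 neurons sro-1 had 37.7, 113, 37.9 and 51.9 CPM at 21% O2 and 63.1, 74.4, 13.98 and 37.8 CPM at 7% O2. Day 7 whole worms had 1.49, 1.33, 0.302 and 0.251 CPM at 21% O2 and 1.58, 2.43, 0.189 and 0.515 CPM at 7% O2. The groups did not overlap, and the log2 fold change was 6.17 (SE 0.74) at 21% O2 and 5.26 (SE 0.77) at 7% O2. sro-1 passed the filter mainly through neurons, so these values only describe and no p is given. Of its exon bases 4.4% are shared with D1022.2, and counting took no account of strand.

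srr-4 had the highest level of the 66 genes in day 7 neurons, with 168 and 220 CPM per kilobase of exon at 21% and 7% O2, where sro-1 came next with 47.7 and 37.4. It is WBGene00005655, on the plus strand of chromosome V from 5019224 to 5022363, next to srr-6. In day 7 neurons it had 253, 228.5, 307 and 177 CPM at 21% O2 and 261, 394, 341 and 273 CPM at 7% O2. Day 7 whole worms had 9.58, 28.96, 3.93 and 5.90 CPM at 21% O2 and 30.8, 20.1, 27.97 and 10.04 CPM at 7% O2, so every neuron library was above every whole-worm library. The log2 fold change was 4.33 (SE 0.59, edgeR adjusted p = 0.000355) at 21% O2, or 5.24 without replicate 2 of the whole worms, and 3.82 (SE 0.33, edgeR adjusted p = 5.61e-06) at 7% O2. In day 7 neurons the sum of all 1343 chemoreceptor genes was 630 ± 107 CPM at 21% O2 and 691 ± 77.7 CPM at 7% O2 (SD, n = 4), and the mean of srr-4 was 241.5 ± 54.1 and 317 ± 62.1 CPM of it.

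The other calls each held at 1 O2 level and are given as values, since these genes were tested through their neuron counts. srx-43 had 1.85, 6.28, 2.95 and 5.61 CPM in day 7 neurons at 21% O2, 158 counts against 1 in whole worms, a ratio of 119.2 with a 95% interval of 21.1 to 4740 (exact, counting error only). sra-37 had 1.19, 2.57, 17.6 and 3.43 CPM at 7% O2, with replicate 3 far above the others, against 13 counts in whole worms, and without replicate 2 or replicate 3 of the neurons it no longer passed the filter. str-231 had 2.28, 1.42, 8.46 and 1.94 CPM at 7% O2, against 9 counts in whole worms, all in 1 library. Its edgeR adjusted p of 0.0602 became 0.144 without replicate 3 of the neurons and 0.147 to 0.156 without replicate 2, 3 or 4 of the whole worms, which ended the call. At 21% O2 sra-37 was 0 in replicates 3 and 4 of the neurons and 17.1 CPM in replicate 1.

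**Figure D3:**
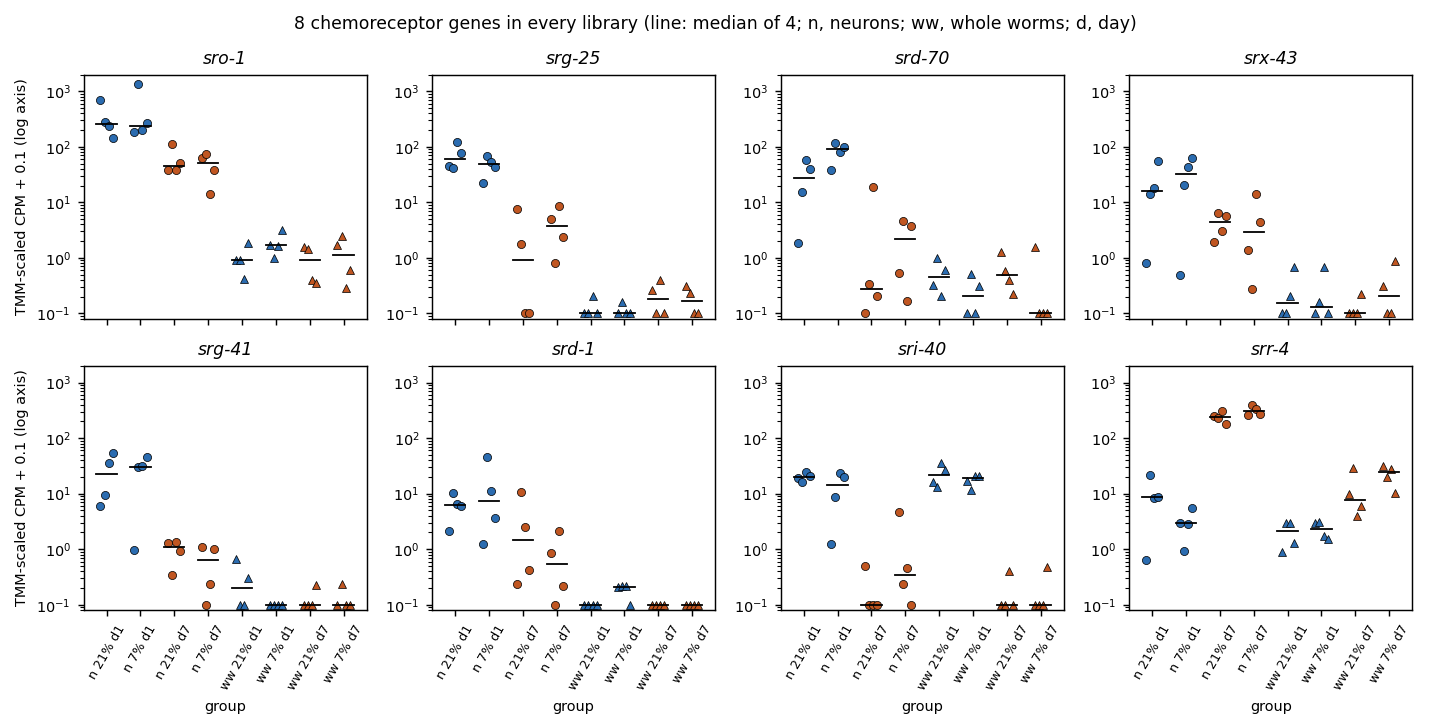
TMM-scaled CPM plus 0.1 (log axis) of 8 chemoreceptor genes in every library, 4 points for each of the 8 groups with their median as a line, circles for neurons and triangles for whole worms, blue for day 1 and orange for day 7. srr-4 is at 177 to 394 CPM in day 7 neurons and at 0.544 to 21.2 CPM in day 1 neurons, and sri-40 is at 0 to 0.386 CPM in day 7 whole worms and at 11.8 to 35.8 CPM in day 1 whole worms.

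To ask whether the number of receptors counted differed, genes with a count of 10 or more were counted per library, over the 66 and over the whole family of 1343. The 66 were by construction counted most in day 1 neurons, with 34, 54, 62 and 56 genes at 21% O2 and 30, 48, 51 and 57 at 7% O2. Day 7 neurons had 22, 26, 26 and 10 of the 66 at 21% O2 and 19, 23, 23 and 19 at 7% O2, and whole worms had 1 to 9. Over the whole family, day 1 neurons had 53, 99, 116 and 82 genes at 21% O2 and 57, 70, 67 and 86 at 7% O2. Day 7 neurons had 58, 76, 94 and 54 genes at 21% O2 and 63, 91, 87 and 85 at 7% O2, so the ages overlapped for the family although few of the 66 were left. Whole worms had 8 to 30 genes. The same count rule applied to day 7 neurons found 38 genes, of which 20 were among the 66 (52.6% of the 38 and 30.3% of the 66). Applied to day 1 whole worms it found 9 genes, 3 of them among the 66 (sri-40, sro-1 and srr-4), and in day 7 whole worms 7 genes, 1 of them among the 66 (srr-4).

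Day 7 neurons and whole worms were compared for the whole family with an exact permutation test over libraries, two-sided, whose smallest possible p with 4 against 4 libraries is 0.0286. It took the libraries as unpaired, although each whole-worm sample was an aliquot of a suspension that was sorted. The number of genes counted was 70.5 ± 18.4 in neurons and 16.5 ± 9.57 in whole worms at 21% O2, and 81.5 ± 12.6 and 18.8 ± 8.46 at 7% O2 (SD, n = 4), without overlap and with an exact p = 0.0286 each. Adjusted over the 7 comparisons that leave out day 1 neurons, both p-values were 0.1. A count of 10 is reached more easily in a library with more counts. Total counts on day 7 at 21% O2 were 8470929 to 10102026 in neurons and 6310558 to 7016010 in whole worms. At 7% O2 they were 8529094 to 19159055 and 5365596 to 8906513. Genes at 1 CPM or more, a measure scaled for depth, are given further below. Summed levels of the family were 6.13 times as high in neurons as in whole worms at 21% O2 and 5.75 times at 7% O2, in 4 of 4 libraries each (exact permutation p = 0.0286, adjusted 0.0667). Between O2 levels the counts of genes overlapped in day 7 neurons (exact permutation p = 0.343) and in whole worms of day 1 and day 7 (exact permutation p = 0.4 and 0.771). Between ages they overlapped in whole worms at 21% and 7% O2 (exact permutation p = 0.543 and 0.571). In whole worms at 7% O2 the family sum rose from 71.1 ± 7.70 CPM on day 1 to 120.3 ± 10.1 CPM on day 7 (SD, n = 4; 1.69-fold, exact permutation p = 0.0286, adjusted 0.0667), and at 21% O2 the ages overlapped (exact permutation p = 0.543).

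**Figure D4:**
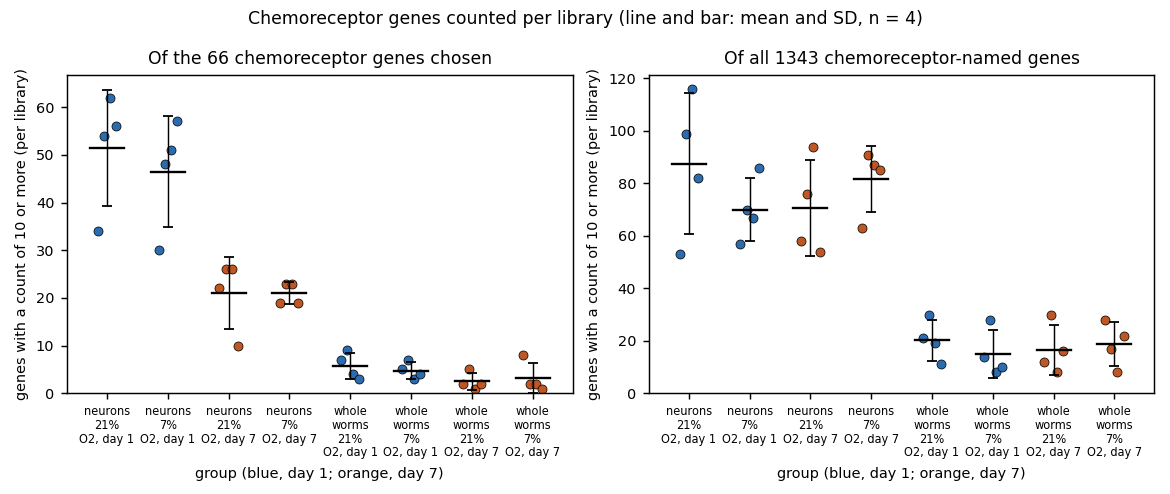
Number of chemoreceptor genes with a count of 10 or more in each library of the 8 groups, left of the 66 genes chosen and right of all 1343, with mean and SD (n = 4). The 66 were chosen on the day 1 neurons. Over the whole family day 7 neurons held 54 to 94 genes and day 1 neurons 53 to 116.

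The next question was whether the O2 level at which animals were kept changed the levels. The rule used the day 1 neurons, so what follows for them only describes. There 65 of the 66 genes were tested and none was called, where 0.0939% of all genes tested were called in either direction. DESeq2 called none of the 66 either, beside 162 of all genes higher at 21% O2 and 91 lower. At an unadjusted p under 0.05 in edgeR stood 2 of the 65 genes, both higher at 21% O2, beside 4.36% of all genes higher and 2.73% lower. One of them, str-79, had 1.81, 0.985, 2.94 and 2.82 CPM at 21% O2 and no count in the 4 libraries at 7% O2, but its adjusted p in edgeR was 0.485. The other, srr-4, had 0.544, 21.2, 8.16 and 8.79 CPM at 21% O2 and 2.86, 0.845, 2.78 and 5.41 CPM at 7% O2, which overlapped (log2 difference 1.70, edgeR adjusted p = 0.548). sre-4 had 16.9, 11.3, 16.4 and 12.6 CPM at 21% O2 and 2.08, 4.49, 2.5 and 2.70 CPM at 7% O2. Its libraries did not overlap, and the log2 difference of 2.26 (SE 1.41) had an edgeR adjusted p of 0.894. Exons of T13F2.6 and a 21U-RNA cover 20.7% of the exon bases of sre-4.

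In day 7 neurons no gene of the 65 tested was called either, where 0.154% of all genes were. At an unadjusted p under 0.05 stood 9 genes higher at 21% O2 and 2 lower, beside 4.61% and 2.44% of all genes, and 6 genes did with the replicate block. DESeq2 called 2, srab-24 and srb-17, both higher at 21% O2, beside 174 of all genes called higher and 63 lower. srb-17 had 5.80, 3.79, 26.6 and 0.529 CPM at 21% O2 and 0.326, 0.929, 1.12 and 0.114 CPM at 7% O2, which overlapped, and its edgeR adjusted p was 0.559. srab-24 had an edgeR adjusted p of 0.510. In whole worms 6 of the 66 genes were tested at each age and none was called, where 0.00918% of all genes were called on day 1 and 0.0551% on day 7. At an unadjusted p under 0.05 there was none on day 1 and 1 on day 7 (sra-37, edgeR adjusted p = 0.844). DESeq2 called none at either age, beside 150 of all genes higher at 21% O2 and 57 lower on day 1, and 4 and 35 on day 7. With the replicate block 76 of all genes were called higher and 32 lower on day 1, and none of the 6. A p that misses the threshold does not show equal levels, and in neurons the biological coefficient of variation of the fit was 1.02, against 0.418 in whole worms.

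Age was compared within neurons and within whole worms. In neurons the day 1 libraries had chosen the genes, so lower values on day 7 follow in part from the choice and are given only as a description. Of the 65 genes tested, 1 was called higher on day 7 at 21% O2 (12.1% of all genes were) and 14 lower (18%). At 7% O2, 1 was called higher (15.4% of all genes) and 24 lower (21.0%). The same gene, srr-4, was the one higher at both O2 levels, and the 8 genes lower at both were sra-25, srg-25, srg-41, sri-18, sri-40, srj-16, sro-1 and str-78. Another 6 genes were called at 21% O2 alone and 16 at 7% O2 alone, and 34 at neither. Mean levels were lower on day 7 for 55 of the 66 genes at 21% O2 and 60 at 7% O2. The same count was not made over all genes, so nothing is read from it. The median log2 change of the 65 genes was -2.16 at 21% O2 and -2.96 at 7% O2, beside -0.20 and -0.28 over all genes tested. With the size factors of DESeq2 in place of TMM the median over all genes moved by 0.29 and 0.22, and those of the 65 genes became -1.86 and -2.78. At 7% O2 the number called fell from 25 to 9 when only the 2 groups compared were fitted. Over all genes 1803 higher and 2459 lower became 1399 and 1741 there. At 21% O2 the number called fell from 15 to 9 without replicate 3 of the day 1 neurons. Over all genes 1418 higher and 2107 lower became 1140 and 1777 there.

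srg-25 went to 7.51, 1.66, 0 and 0 CPM in day 7 neurons at 21% O2 and to 4.88, 0.708, 8.32 and 2.29 CPM at 7% O2, below every day 1 library. srd-70 went to 0, 0.237, 18.9 and 0.106 CPM at 21% O2, where 1 library stayed within the day 1 range, and to 0.434, 4.47, 0.0699 and 3.66 CPM at 7% O2. sro-1 had log2 changes of -2.48 and -3.39, and its day 7 libraries all lay below those of day 1. These became -1.87 without replicate 1 of the day 1 neurons at 21% O2 and -2.19 without replicate 2 of those at 7% O2. By family, srg genes summed to 141 and 127 CPM in day 1 neurons (21% and 7% O2) and to 17.4 and 16.4 CPM in day 7 neurons. The 6 srd genes summed to 52.1 and 116 CPM and then to 15.5 and 4.98 CPM, and the 3 srab genes to 27.4 and 30.98 CPM and then to 3.09 and 0.109 CPM. The srr family went the other way, from 16.3 and 8.25 CPM to 247 and 323 CPM, nearly all of it srr-4. srr-1 of the same family had 3.42 and 4.35 CPM on day 1 and 0.118 and 0.674 CPM on day 7.

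**Figure D5:**
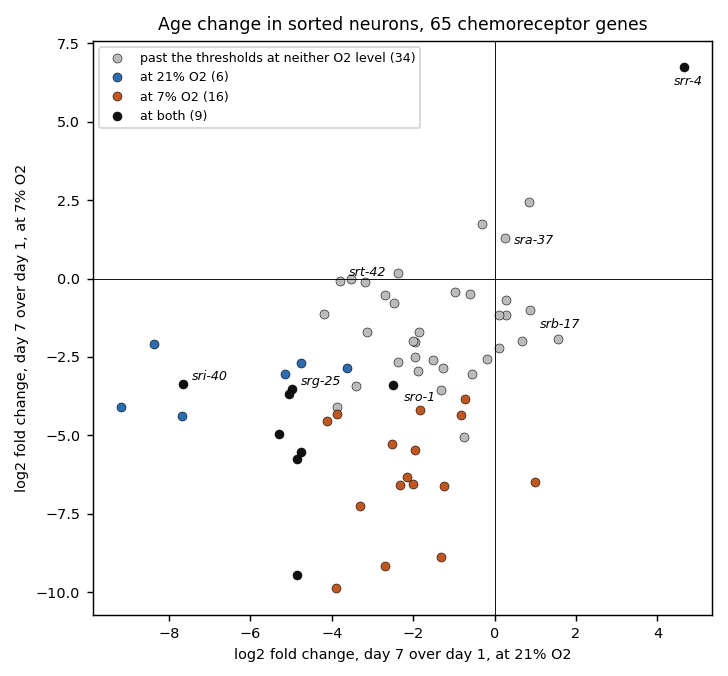
Log2 fold change of day 7 over day 1 neurons for 65 chemoreceptor genes, at 21% O2 (horizontal) and 7% O2 (vertical), coloured by whether the gene passed the thresholds at neither (34), only 21% (6), only 7% (16) or both (9) O2 levels. srr-4 lies alone at 4.66 and 6.75. The genes were chosen on the day 1 libraries that both axes share with the choice.

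Neuron markers as a whole were also lower in the day 7 sorted samples. Day 1 over day 7, the 64 genes without sro-1 and srr-4 had a ratio of summed CPM of 4.04 at 21% O2 and 5.59 at 7% O2, and sro-1 a ratio of 5.65 and 10.51, the second 4.58 without replicate 2 of the day 1 neurons. The ASI markers had ratios of 5.70 and 16.9, the touch neuron markers 11.9 and 20.4, the O2-sensing neuron markers 11.7 and 12.7, and 6 genes of all neurons 7.47 and 9.07. The summed intestinal markers (vit-2, vit-6, ges-1 and elt-2) had a median of 932 and 811 CPM in day 1 neurons and of 4965 and 6560 CPM in day 7 neurons. The lowest ASI marker sum of day 1 neurons, 394.5 CPM, was within the range of 160 to 632 CPM of day 7 neurons. The part of these shifts in the age differences of chemoreceptor genes was not tested.

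In whole worms the age comparison used no library of the rule, and 6 of the 66 genes had counts to test. It is not fully independent of the rule. The day 1 whole-worm samples were aliquots of the suspensions whose sorted cells chose the genes, so the choice may favour genes high in them. At 21% O2, 1 was called higher on day 7 (7.92% of all genes were) and 1 lower (10.7%). At 7% O2 it was again 1 higher (7.49%) and 1 lower (8.36%), and both genes were the same at the 2 O2 levels, srr-4 and sri-40. srr-4 went from 0.778, 2.91, 2.86 and 1.18 CPM on day 1 to 9.58, 28.96, 3.93 and 5.90 CPM on day 7 at 21% O2, and from 2.83, 2.95, 1.64 and 1.40 CPM to 30.8, 20.1, 27.97 and 10.04 CPM at 7% O2. Every day 7 library lay above every day 1 library, with a log2 change of 2.71 (SE 0.58, edgeR adjusted p = 0.00273) at 21% O2, or 1.78 without replicate 2 of day 7, and 3.33 (SE 0.59, edgeR adjusted p = 0.000695) at 7% O2. In neurons the log2 change of srr-4 was 4.66 at 21% O2 and 6.75 at 7% O2, and the neuron and whole-worm changes were not tested against each other.

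sri-40 fell in whole worms. From the day 1 values above, at least 11.8 CPM in every library, it went to 0, 0, 0.302 and 0 CPM at 21% O2 and 0, 0, 0 and 0.386 CPM at 7% O2 on day 7, which is 2 and 3 counts over 4 libraries against 1117 and 722 on day 1. The ratio of day 1 to day 7 was 297 (95% interval 82.0 to 2460, exact, counting error only) at 21% O2 and 164 (55.9 to 798) at 7% O2. sri-40 passed the filter through its day 1 libraries, so these ratios only describe and no p is given. Day 7 neurons had 0.395, 0, 0 and 0 CPM at 21% O2 and 4.67, 0.133, 0.350 and 0 CPM at 7% O2. sro-1 was tested in whole worms as well, and at 7% O2 its means of 1.76 CPM on day 1 and 1.18 CPM on day 7 overlapped between libraries (edgeR adjusted p = 0.760).

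Whether age acted differently at the 2 O2 levels was asked with the age by O2 interaction. In neurons the day 1 libraries that chose the genes enter it, so its values there only describe. None of the 65 genes was called in neurons, where 0.0597% of all genes were. At an unadjusted p under 0.05 stood 7 of the 65 genes, beside 3.63% of all genes in one direction and 3.81% in the other, and 1 with the replicate block, with the smallest p for srh-112 (0.0174, edgeR adjusted p = 0.591), and DESeq2 called none. The 16 genes called with age at 7% O2 alone and the 6 at 21% O2 alone are thus not shown to differ between O2 levels. In whole worms none of 6 was called, where 0.211% of all genes were, with none at an unadjusted p under 0.05 and none by DESeq2.

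Genes that act with chemoreceptors were looked at as a list of 33, covering transport to the cilium, G proteins, channels and transcriptional control. In day 1 neurons 26 of the 27 tested were called higher than in whole worms at 21% O2 and 22 of 25 at 7% O2, and on day 7 17 of 25 and 14 of 22, with none lower, where 30.0%, 26.8%, 23.5% and 24.7% of all genes tested were called higher. Genes near 0 in whole worms passed the filter through neurons here too. tax-4, a subunit of the cGMP-gated channel of sensory neurons, had means of 66.7 and 90.7 CPM in day 1 neurons (21% and 7% O2) and 13.6 and 5.17 CPM in day 7 neurons. gpa-4, a G protein alpha subunit of ASI, had 161 and 175 CPM and then 29.5 and 11.3 CPM. rgs-3, a regulator of G protein signalling, had 308 and 439.5 CPM and then 51.9 and 32.03 CPM. With age, 16 of the 31 tested in neurons were called lower at each O2 level, where 18% and 21.0% of all genes were, and at 7% O2 1 was higher, ocr-2, a TRPV channel subunit, where 15.4% of all genes were. At 7% O2 ocr-2 had 0.114 ± 0.137 CPM on day 1 and 4.89 ± 5.58 CPM on day 7 (SD, n = 4). At 21% O2 its mean went the other way, from 3.75 to 0.501 CPM, and it was not called. tub-1 and bbs-8, which act in ciliary transport, were among the lower at both O2 levels, as were mef-2, hda-4, tax-6 and egl-4, which act in the control of chemoreceptor gene expression or of sensory adaptation. odr-4, needed to bring chemoreceptors to the cilium, was tested and not called, with log2 changes of -0.35 and -0.32 and means of 37.9 and 40.97 CPM on day 1 and 29.4 and 32.7 CPM on day 7. None of the 33 was called between O2 levels in neurons or whole worms.

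Some counts of the list may belong in part to other genes. Exons of 24 of the 66 genes overlap exons of another gene, in 3 of them by over 20% of their exon bases: srh-112 by 40.4% (scl-25), srab-14 by 38.5% (spi-1) and sre-4. Fragments were counted on either strand, and those with an alignment quality under 10 were not counted, so reads shared by near-identical receptors can be missing from both.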

How the data were processed

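The deposited file holds raw fragment counts per gene for the 32 libraries (4 biological replicates of 8 groups). The authors amplified cDNA with the Ovation RNA-seq system, trimmed reads with Cutadapt 1.9, aligned them with STAR 2.5.2b to WBcel235, removed ribosomal RNA genes and counted fragments on exons without strand with featureCounts 1.5.1, and they tested with DESeq2. Amplified counts without molecular identifiers are not independent molecules.

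Here genes were filtered with filterByExpr (minimum count 10), scaled by TMM and tested with the robust quasi-likelihood F test of edgeR 4.0.16 (R 4.3.3), two-sided, Benjamini-Hochberg adjusted over all genes tested, in the 8 libraries of the 2 groups for neurons against whole worms and in the 16 libraries of a sample type otherwise. Standard errors are the absolute change over the square root of F. Per-library values were compared by exact permutation. Ratios to groups with 1 to 3 counts carry an exact conditional binomial (Clopper-Pearson) interval. Scripts were tested on simulated data. Coordinates, exon lengths and overlaps come from the Ensembl annotation of WBcel235. Named genes are those with the highest level in day 1 neurons, those counted in all 8 of these libraries, in each comparison the 2 up and 2 down with the smallest p, receptors of known neurons and genes at the threshold. The genes srr-1, srr-6, str-79, srb-17, srab-24, srab-14 and str-231 and members of counts up to 5 were added after their values were seen. The genes and lists were chosen with earlier results of these data known. Alternatives were DESeq2 1.42.0, its size factors in edgeR, no filter on low counts, an adjusted p under 0.05, only the 2 groups compared, each library left out in turn, and a block for the replicate number.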

Additional observations from a re-analysis of the deposited data

Results flagged for a closer look

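In groups of 4 libraries, a library was singled out when its gap to the nearest other library exceeded Dixon's 95% critical value as a share of the group's range, which chance gives in about 1 in 20 groups. Of 96 groups looked at, 10 held such a library. In day 1 neurons sro-1 reached 1338 CPM in replicate 2 at 7% O2, srg-31 reached 38.9 CPM in the same library, and srg-31 reached 17.9 CPM in replicate 4 at 21% O2. In day 7 neurons at 21% O2, srd-70 had 18.9 CPM in replicate 3, srab-12 had 5.80 CPM in replicate 1, and the summed CPM of the 66 genes was 269.6 in replicate 4, below the others. In day 7 neurons at 7% O2, sri-40 had 4.67 CPM and str-78 had 3.8 CPM in replicate 1, and sra-37 had 17.6 CPM in replicate 3. In day 7 whole worms at 7% O2, replicate 1 had 8 of the 66 genes at a count of 10 or more.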

How the results depend on the processing

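The age and O2 counts below are of the 66 genes. Low counts limit the comparisons of neurons with whole worms: 24, 16, 3 and 4 genes called (day 1 at 21% and 7% O2, day 7 at 21% and 7% O2) became 57, 57, 21 and 23 with no filter on low counts and 58, 56, 17 and 15 with DESeq2, as more genes were tested. Over all genes, 3236, 2701, 2181 and 2378 were called higher in neurons. These became 4126, 3539, 2396 and 2797 with no filter and 4100, 3578, 2739 and 2868 with DESeq2. The 66 genes were chosen for counts in neurons, so nothing is read from these numbers. Leaving out 1 library gave 23 to 46, 15 to 35, 3 to 8 and 4 to 8 of the 66 genes, again with more genes tested when fewer libraries had to pass the filter. On day 1 every whole-worm library (40 to 46 genes without it at 21% O2, 30 to 35 at 7% O2) and replicate 1 of the neurons (37 and 27) moved the count by over 1.5 times. On day 7 every whole-worm library (8 genes without it at 21% O2, 7 or 8 at 7% O2) and replicate 4 of the neurons at 21% O2 (5) did. For O2 in neurons, no filter gave 1 gene on day 1 (srr-4) and DESeq2 2 on day 7, and the interaction in neurons gave 1 (srr-4) with no filter, the cause of which was not tested. Over all genes, no filter gave 63 higher at 21% O2 and 26 lower on day 1, and DESeq2 gave 174 and 63 on day 7. The age count in neurons at 21% O2 went from 15 to 9 at an adjusted p under 0.05 and to 9 without replicate 3 of the day 1 neurons (9 to 15 over left-out libraries), and at 7% O2 from 25 of 65 tested to 9 of 36 tested in a fit of the 2 groups alone. Over all genes at 21% O2, 1418 higher and 2107 lower became 1070 and 1644 at an adjusted p under 0.05. Without replicate 3 they became 1140 and 1777. At 7% O2, 1803 and 2459 became 1399 and 1741. Without replicate 1 of both day 1 neuron groups, chosen after seeing the data, 12 and 24 genes were called with age, and 0 with O2 and in the interaction. Over all genes that fit called 1301 and 2055 higher with age and 1959 and 2378 lower. The replicate block gave 24, 16, 3 and 4 genes for neurons against whole worms, 14 and 20 for age in neurons, 2 and 2 for age in whole worms and 0 elsewhere. It changed no count of the 66 genes by over 1.5 times. Over all genes the block called 3025, 2288, 1965 and 2076 higher in neurons than in whole worms. With age in neurons it called 1283 and 1738 of all genes higher and 2047 and 2249 lower. Each whole-worm sample was an aliquot of a suspension that was sorted, so neurons and whole worms can be paired by origin. The labels do not state which belong together. The whole-worm library closest in its deviations bore the same number for 4, 0, 2 and 3 of 4 neuron libraries (day 1 at 21% and 7% O2, day 7 at 21% and 7% O2). Between O2 levels in whole worms the closest library bore the same number for 3 of 4 on day 1 and 4 of 4 on day 7. Correlations of same-numbered libraries there reached 0.454 and 0.271. With the replicate block, O2 calls over all genes in day 1 whole worms went from 1 to 76 higher and from 0 to 32 lower. Same-numbered libraries did not deviate together with a correlation over 0.1 in every pair of any comparison. The numbers were not taken as pairs, so the tests outside the replicate block ignore any pairing. The family sum differed by 488 to 574 CPM and 547 to 595 CPM between day 7 neurons and whole worms (21% and 7% O2) and by 44.5 to 52.3 CPM between ages in whole worms at 7% O2 over left-out libraries. There 3 against 4 libraries cannot go below an exact permutation p of 0.0571 (adjusted 0.133). Counting genes at 1 CPM or more in place of a count of 10, the differences were 44.5 and 46.8 genes between day 7 neurons and whole worms and 13.5 between ages in whole worms at 7% O2 (exact permutation p = 0.0286, adjusted 0.0667 each). The last held only at this threshold. With a count of 10 the means were 15 genes on day 1 and 18.75 on day 7, which overlapped (exact permutation p = 0.571, adjusted 0.667). Over the alternatives, 22 fold changes of 9 genes were refitted 302 times and kept direction each time, 297 times with the call. Most of these fold changes used the libraries of the rule or were of genes that passed the filter through their higher group. Their direction could hardly change, so nothing is read from these totals. The 5 losses were of str-231 in day 7 neurons over whole worms at 7% O2 (at an adjusted p under 0.05 and without replicate 3 of the neurons or replicate 2, 3 or 4 of the whole worms), and 2 further fits, of sra-37 there, left it untested.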

Other observations

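Day 7 neurons held a partly different set of receptors. Of the 38 genes that met the count rule there, 18 were not among the 66, and 9 of these 18 reached a count of 10 in none of the 8 day 1 neuron libraries. srz-19 had no count in day 1 neurons and means of 4.84 and 8.53 CPM in day 7 neurons at 21% and 7% O2, with 0.743 and 0.221 CPM in day 7 whole worms. srh-99 had no count in day 1 neurons and 3.17 and 5.88 CPM in day 7 neurons. srt-63 had 4.38 and 3.84 CPM in day 7 neurons and at most 0.0579 CPM in day 1 neurons. str-176 had 5.45 and 8.05 CPM in day 7 neurons and 4.86 to 7.66 CPM in whole worms of either age, and str-245 had 0.957 and 0.684 CPM in day 7 neurons and 1.93 to 2.79 CPM in whole worms. These genes were chosen on the day 7 values, which are given with no test.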
